A study of Mus musculus with 12 samples.

Results

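Gene expression in the hypothalamus of adult mice exposed to the NMDA receptor antagonist CGP 39551 during development was compared with that of unexposed control mice. The comparison used the 6 arrays that the sample titles assign to developmental NMDAR antagonism without aspartame (CGP, 3 arrays) and to control mice (CON, 3 arrays), of 12 arrays in all, and covered 17186 genes. Dams of CGP mice drank water with CGP 39551 at 5 mg/kg of their body weight from conception of the litters until weaning at postnatal day 28, and their male offspring then drank plain water. The other pools came from mice that took in the sweetener aspartame at 46 mg/kg from before birth into adulthood (ASP), from mice given both treatments (ASP+CGP), and from the CON mice, which had plain water and the standard chow that all groups ate. All mice were C57Bl/6J males and were killed at 21 weeks, so that the CGP mice had been without the drug since weaning.

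A limit of the design is that the RNA of the mice of each group was combined into 1 pool before it was hybridized to 3 Affymetrix mouse gene arrays. The p-values therefore measure the spread between arrays of a pool and not between mice, and whatever else set the CGP pool apart from the CON pool cannot be told apart from an effect of the drug. In bulk RNA, fewer cells of a type and less RNA per cell cannot be told apart either. All signals given are log2 RMA values, so a difference of 1 is a 2-fold change. Medians of the 6 arrays lay between 8.296 and 8.335. The CGP arrays correlated with each other at r = 0.996 to 0.997 across genes, which are not independent replicates, the CON arrays at 0.992 to 0.996, and CGP with CON arrays at 0.992 to 0.995. The third CON array lay farthest from the mean of its pool (SD of the deviation 0.0903, against 0.049 to 0.0689 on the other CGP and CON arrays). The tissue label was met by markers of the hypothalamus, such as Hcrt, which encodes the wake-promoting peptide orexin, at 12.52, 12.57 and 12.53 on the CGP arrays and 12.60, 12.68 and 12.67 on the CON arrays.

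NMDA receptors are glutamate-gated channels that open only when glutamate and a co-agonist, glycine or D-serine, are bound and the membrane is depolarized. In the young brain they shape the survival, wiring and synapses of neurons, and CGP 39551 blocks the site where glutamate binds. The hypothalamus holds neurons that make the releasing hormones of the pituitary gland, the peptides vasopressin and oxytocin and the signals of feeding, and it borders on the pituitary gland below and the thalamus above, with the habenula at the rear of the thalamus.

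The question was which genes still differed in adulthood, long after the drug was withdrawn. The largest difference was the lower signal of Slc6a5, a glycine transporter gene, and most other differentially expressed genes (DEGs) were higher in CGP. The higher DEGs included 6 hormone genes of the anterior pituitary and 4 genes of the habenula, whereas of the thalamus genes 1 was called and 10 more passed only the adjusted p described below. These groups come from gene lists drawn up with earlier results of these data known. Counts of list members here and below are therefore descriptions and not tests. A gene counted as a DEG when limma gave a p, adjusted over all genes by Benjamini-Hochberg, below 0.05 and the pools differed more than 1.4-fold. By this rule 19 of 17186 genes were called (0.111%), 16 higher (0.0931%) and 3 lower in CGP (0.0175%). A further 89 genes passed the adjusted p but not the fold threshold, giving 108 in all at the adjusted p alone (0.628%), of which 84 were higher (0.489%) and 24 lower (0.14%). The CGP and CON arrays did not overlap for 3334 genes (19.4%). Among these were all 108 genes at the adjusted p. Separate arrays of such a gene therefore go with its choice and add no support to it. The median change of all genes was 0.01, and 98% of genes lay between -0.20 and 0.24. Changes were above 0 for 9987 of the 17186 genes and below 0 for 7199.

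**Figure D1:**
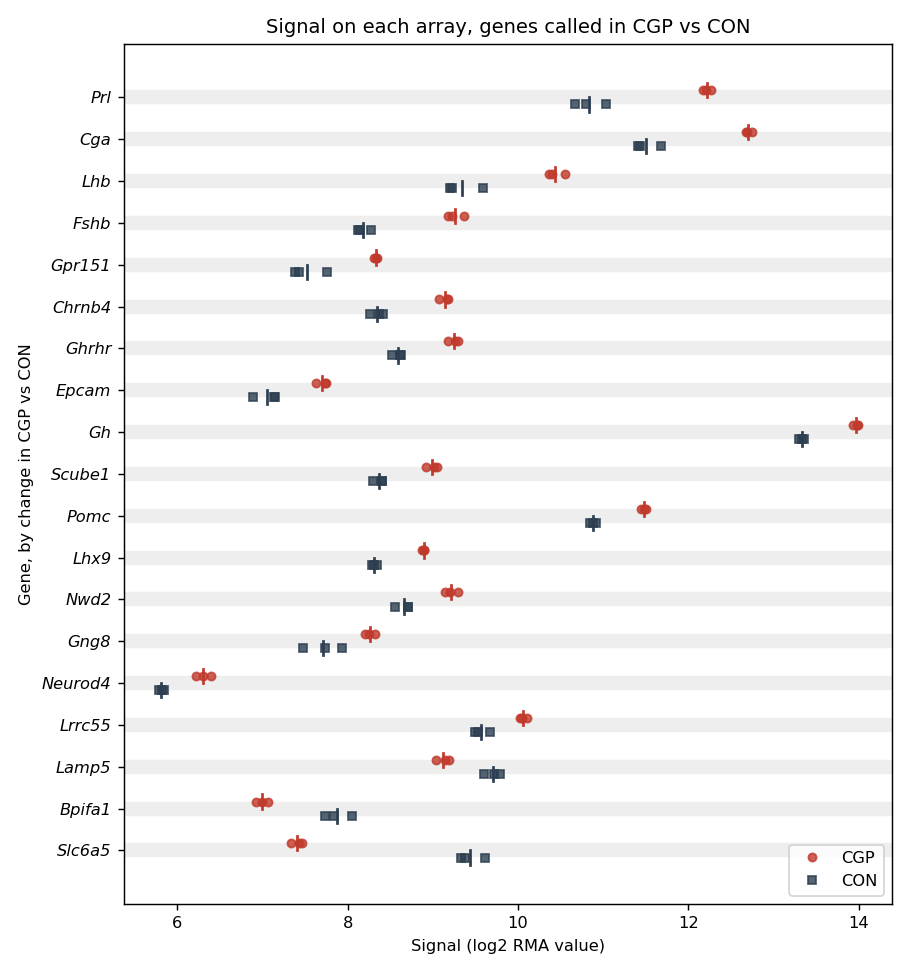
Signal (log2 RMA value, x axis) of each called gene (y axis, ordered by the change) on the 3 CGP arrays (circles) and the 3 CON arrays (squares), with short lines at the means. The CGP and CON arrays did not overlap for any of the 19 genes, and the gap was widest for Slc6a5. The same held for all 108 genes under the adjusted p, by which these were chosen, and for 19.4% of all genes.

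The 19 called genes differed in how firmly they held. In the 6 fits that each left out 1 CGP or CON array, 16 of them were called every time. Gng8 lost the call without the second CON array, where its change was 0.42, and without the first CGP array, with an adjusted p of 0.0557. It also lost it with the 6 compared arrays fitted alone and without moderation of the spread, with adjusted p-values of 0.0823 and 0.0839. Neurod4 lost it without the second CON or the second CGP array, and Lrrc55 without the first CON, the third CON or the third CGP array, where changes were between 0.45 and 0.48, under the limit of 0.49. Neurod4 was also lost after a further quantile normalization, at 0.43, and it did not pass a filter that asks for a signal of 7. The count of lower genes was 5 without the second CON array, when Snord87, a small nucleolar RNA gene, and Gm10785 were added. Counts at the adjusted p alone moved more. They came to 60, 86 and 153 genes without CON array 1, 2 and 3 and to 49, 55 and 51 without CGP array 1, 2 and 3, and 43 of the 108 genes passed in all 6 fits (37 higher and 6 lower).

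**Figure D2:**
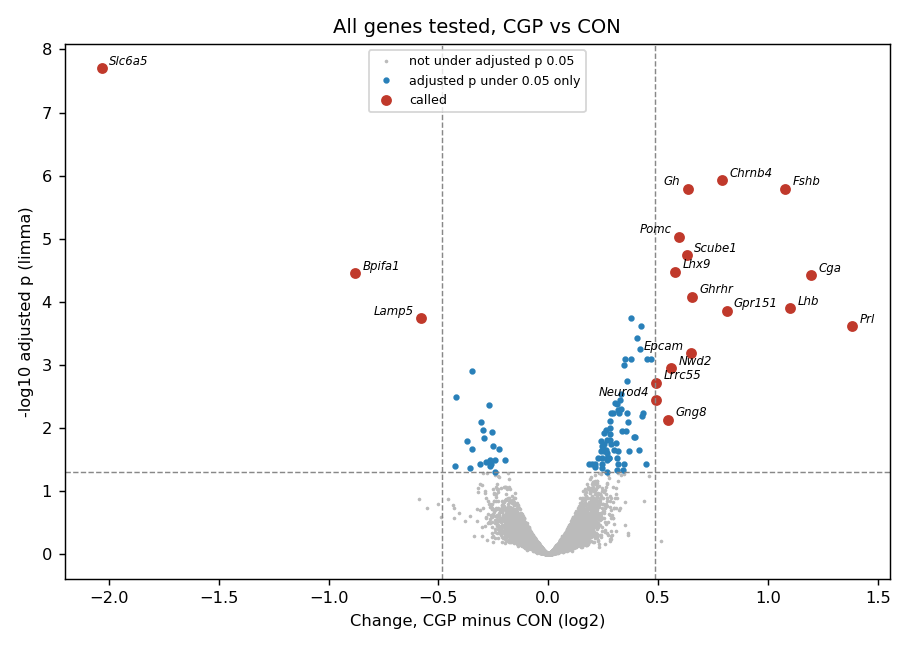
Change of each gene in CGP minus CON (log2, x axis) against -log10 of the adjusted p (y axis), with 19 called genes in red, the 89 genes that passed the adjusted p only in blue and dashed lines at the thresholds. Slc6a5 stands apart at the left with a change of -2.03, and the called genes to the right range between 0.49 and 1.38.

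Glycine is an inhibitory transmitter as well as the co-agonist of NMDA receptors, and Slc6a5 encodes GlyT2, the transporter that reloads glycine into the endings of inhibitory glycine neurons. Slc6a5 had signals of 7.46, 7.33 and 7.43 on the CGP arrays, against 9.37, 9.61 and 9.33 on the CON arrays. Every CGP array lay more than 1 log2 unit below every CON array, and the change was -2.03 ± 0.08 (SE, limma adjusted p = 1.99e-08). Among 12 measured genes of glycine transport and receptors, this was the only one called, and the median of the list was -0.03. Glra1, the alpha 1 subunit of the glycine receptor, was lower by a smaller step, with 9.70, 9.73 and 9.68 on the CGP arrays and 10.02, 9.93 and 9.88 on the CON arrays. Its change of -0.24 ± 0.05 passed the adjusted p (0.0316) but not the fold threshold, and the adjusted p rose to as much as 0.171 when single arrays were left out. Slc6a9, the glial glycine transporter GlyT1, changed by 0.09 ± 0.06, and Glrb, the beta subunit that anchors glycine receptors, by 0.04 ± 0.05, both with overlapping arrays.

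Slc6a5 is also a marker of the hindbrain and spinal cord, where most glycine neurons lie. Of 12 measured genes in a list of that tissue, Slc6a5 was called and Tph2, the enzyme of serotonin synthesis in the raphe nuclei, passed the adjusted p alone. Tph2 had 6.12, 6.32 and 6.27 on the CGP arrays against 6.61, 6.65 and 6.73 on the CON arrays, a change of -0.43 ± 0.09 (limma adjusted p = 0.0395), and missed the threshold in all 6 fits without 1 array, with an adjusted p of up to 0.199. Slc6a4, the serotonin transporter of the same neurons, changed by -0.12 ± 0.06 (adjusted p = 0.474). The summed level of the list was 10.48 to 10.62 on the CGP arrays and 10.94 to 11.06 on the CON arrays (log2 of the sum, Slc6a5 included), its median change was 0.04, and the Hox, En and Phox2a genes of the list changed by between -0.12 and 0.13. The part of such tissue in the Slc6a5 result was not tested.

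The other called genes that were lower in CGP were Bpifa1 and Lamp5, and whether they share a pathway was not tested. Bpifa1, a secreted protein of airway and other mucosal epithelia, had 6.99, 7.06 and 6.92 on the CGP arrays against 7.84, 7.73 and 8.05 on the CON arrays. Lamp5, a lysosome-associated membrane protein of neurons, had 9.14, 9.19 and 9.03 on the CGP arrays against 9.71, 9.79 and 9.60 on the CON arrays. In both cases all CGP arrays lay below all CON arrays, and the changes were -0.88 ± 0.07 and -0.58 ± 0.06 (limma adjusted p = 3.52e-05 and 0.000181). Of 15 genes in the list of secretory epithelium, 1 was called lower, Bpifa1, and 1 was called higher, Epcam, which is described below. Bpifb1, a relative of Bpifa1, changed by 0.05, and the median of the list was 0.07. Of 12 measured genes in the list of cortex and hippocampus, Lamp5 alone was called. Changes were above 0 for 9 of these 12, with a median of 0.08.

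Anterior pituitary hormones are made by separate cell types, namely lactotrophs (prolactin), somatotrophs (growth hormone), gonadotrophs (luteinizing and follicle-stimulating hormone), thyrotrophs (thyrotropin) and corticotrophs, which cut corticotropin from the Pomc precursor. Of 7 hormone genes measured, 6 were called higher in CGP, with a median change of 1.08. Prl, the prolactin gene, had 12.17, 12.21 and 12.26 on the CGP arrays against 10.80, 10.67 and 11.03 on the CON arrays. Cga, the alpha subunit shared by both gonadotropins and thyrotropin, had 12.68, 12.75 and 12.67 on the CGP arrays and 11.41, 11.43 and 11.67 on the CON arrays. All CGP arrays were above all CON arrays for these genes, with changes of 1.38 ± 0.14 for Prl and 1.20 ± 0.10 for Cga (limma adjusted p = 0.000243 and 3.81e-05).

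The genes of the specific beta subunits of the gonadotropins changed by about as much. Lhb had 10.40, 10.36 and 10.55 on the CGP arrays and 9.20, 9.23 and 9.58 on the CON arrays. Fshb had 9.37, 9.23 and 9.18 on the CGP arrays and 8.12, 8.14 and 8.27 on the CON arrays. The third CON array was the highest of its pool for both as well as for Prl and Cga, yet stayed under every CGP array, and the changes were 1.10 ± 0.11 and 1.08 ± 0.07. Tshb, the beta subunit of thyrotropin, was the exception, with 7.43, 7.46 and 7.12 on the CGP arrays and 6.98, 7.06 and 7.14 on the CON arrays. These values overlapped, and its change of 0.28 ± 0.09 did not pass (limma adjusted p = 0.229, 95% interval 0.09 to 0.47).

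Gh and Pomc changed less than the gonadotropin and prolactin genes, and their arrays were closer together. Gh, the growth hormone gene, had 13.98, 13.98 and 13.93 on the CGP arrays and 13.34, 13.36 and 13.30 on the CON arrays, a change of 0.63 ± 0.04 (limma adjusted p = 1.62e-06). Pomc, which arcuate neurons of the hypothalamus also express as the precursor of the satiety peptide alpha-MSH, had 11.44, 11.48 and 11.50 on the CGP arrays and 10.84, 10.88 and 10.91 on the CON arrays, a change of 0.59 ± 0.04. The intervals of these changes, 0.55 to 0.72 for Gh and 0.50 to 0.69 for Pomc, lie below those of Prl (1.07 to 1.70), Cga (0.98 to 1.42), Lhb (0.87 to 1.33) and Fshb (0.94 to 1.22). Differences between genes were not tested, and intervals cover the spread between arrays only.

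Of 13 lineage factors and releasing hormone receptors of the pituitary, Ghrhr was called and Gnrhr passed the adjusted p alone. Ghrhr, through which somatotrophs sense growth hormone-releasing hormone, had 9.29, 9.26 and 9.17 on the CGP arrays and 8.52, 8.63 and 8.62 on the CON arrays, a change of 0.65 ± 0.06. Gnrhr, the gonadotropin-releasing hormone receptor of gonadotrophs, had 6.21, 6.21 and 6.34 on the CGP arrays and 6.00, 5.89 and 5.78 on the CON arrays, a change of 0.36 ± 0.06 close to the lower limit of detection, and the adjusted p of 0.00807 came to 0.063 with 1 of the arrays left out. The transcription factor genes Pitx1, Lhx3 and Tbx19 changed by 0.10, 0.10 and 0.13 with adjusted p-values of 0.336 to 0.55, and the median of the list was 0.05. Epcam, a surface adhesion protein of epithelial cells, had 7.75, 7.73 and 7.63 on the CGP arrays and 7.14, 6.89 and 7.13 on the CON arrays and was called at 0.65 ± 0.07, whereas Krt8, a keratin of simple epithelia, had 8.49, 8.59 and 8.28 and 8.14, 8.22 and 8.13 on the CGP and CON arrays (0.29 ± 0.10, adjusted p = 0.266). The summed level of the hormone list was 14.975 to 15.0003 on the CGP arrays and 14.11 to 14.18 on the CON arrays, and the mean of every member was over 6 in both pools. What share of pituitary tissue each pool held was not tested.

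The sequences just before the start sites of Prl, Lhb and Cga are shown because these were the largest rises that had a match to a known binding motif of a pituitary cell-type factor. The 250 bases before the start, from RefSeq on GRCm38.p6, are at chr13:27057320-27057569 (plus strand) for Prl, chr7:45420696-45420945 (plus strand) for Lhb and chr4:34893529-34893778 (plus strand) for Cga. Capitals mark matches to TAT followed by any base and CAT (Pit-1, the factor of lactotrophs, somatotrophs and thyrotrophs) and to TGNCCTTG, with N any base (SF-1, a factor of gonadotrophs), searched on both strands, and to TATAAA, the core of the TATA box, searched on the coding strand.
Prl: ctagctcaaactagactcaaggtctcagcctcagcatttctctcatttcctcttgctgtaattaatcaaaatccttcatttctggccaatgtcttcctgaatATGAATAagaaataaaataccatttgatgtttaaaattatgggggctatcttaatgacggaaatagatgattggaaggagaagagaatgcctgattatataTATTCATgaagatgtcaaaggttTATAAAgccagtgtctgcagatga
Lhb: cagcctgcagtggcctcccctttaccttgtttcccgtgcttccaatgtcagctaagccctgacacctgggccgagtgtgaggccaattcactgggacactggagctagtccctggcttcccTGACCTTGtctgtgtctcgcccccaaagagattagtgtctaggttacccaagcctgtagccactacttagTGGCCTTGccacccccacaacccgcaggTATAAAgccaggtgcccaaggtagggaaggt
Cga: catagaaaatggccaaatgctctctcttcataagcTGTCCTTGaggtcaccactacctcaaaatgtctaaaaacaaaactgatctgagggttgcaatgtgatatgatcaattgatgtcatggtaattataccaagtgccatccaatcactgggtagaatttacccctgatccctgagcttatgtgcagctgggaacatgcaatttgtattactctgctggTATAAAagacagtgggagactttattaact

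In Prl the Pit-1 letters began at positions -148 and -47, counted from the start site, in Lhb the SF-1 letters began at -129 and -59, and in Cga they began at -215. Of 32851 windows of this length, 7.92% held the Pit-1 letters, 5.53% the SF-1 letters and 7.59% the TATA box. Windows were matched for 16 of the 19 called genes, and those of Gh, Ghrhr and Gpr151 were not searched here. Among the 16 the Pit-1 letters were in Prl only, the SF-1 letters in Lhb and Cga only, and the TATA box in Prl, Lhb, Cga, Fshb, Pomc and Bpifa1. A match is a description of the letters and does not show that a factor binds there.

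The habenula relays signals from the limbic forebrain to the midbrain, and its medial part is a site of dense nicotinic acetylcholine receptors built of alpha 3 and beta 4 subunits. Of 15 measured habenula genes, 7 passed the adjusted p, all higher in CGP, and 4 of these 7 were called. Changes were above 0 for 14 of the 15, with a median of 0.21, where ASP had 0.17 and ASP+CGP 0.24 against the same CON arrays. Gpr151, an orphan receptor that marks habenula neurons, had 8.31, 8.35 and 8.34 on the CGP arrays and 7.75, 7.38 and 7.43 on the CON arrays. Chrnb4, the beta 4 subunit, had 9.16, 9.08 and 9.17 on the CGP arrays and 8.36, 8.41 and 8.26 on the CON arrays. CGP and CON arrays were separated for both, and the changes were 0.81 ± 0.08 and 0.79 ± 0.05 (limma adjusted p = 0.000139 and 1.19e-06).

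Partners of Chrnb4 in the same receptors rose as well, by less. Chrna3, the alpha 3 subunit, had 9.07, 9.18 and 9.14 on the CGP arrays and 8.60, 8.63 and 8.75 on the CON arrays, a change of 0.47 ± 0.06 just under the fold threshold (adjusted p = 0.000801). Without the third CON array or the first CGP array it was called, at 0.51 and 0.50. Chrnb3, the beta 3 subunit, had 8.26, 8.23 and 8.29 on the CGP arrays and 7.89, 7.92 and 7.89 on the CON arrays, a change of 0.36 ± 0.05, and passed the adjusted p in all 6 fits without 1 array. The other 6 nicotinic subunit genes measured changed by between -0.09 for Chrna6 and 0.22 for Chrna4, the main alpha subunit of the forebrain (0.22 ± 0.07, adjusted p = 0.197), so that the median over all 9 was 0.06.

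The further called genes of the habenula list were Nwd2, a protein with WD repeats, and Gng8, a G protein gamma subunit. Nwd2 had 9.15, 9.29 and 9.21 on the CGP arrays and 8.70, 8.71 and 8.55 on the CON arrays, a change of 0.56 ± 0.07. Gng8 had 8.32, 8.20 and 8.25 on the CGP arrays and 7.93, 7.47 and 7.73 on the CON arrays, which spread the most, and changed by 0.55 ± 0.08 (adjusted p = 0.0074, not called without the second CON or the first CGP array, as given above). Pou4f1, the transcription factor that defines habenula neurons, had 7.11, 7.07 and 7.12 on the CGP arrays and 6.62, 6.80 and 6.76 on the CON arrays, with a change of 0.37 ± 0.07 whose adjusted p of 0.0229 rose to as much as 0.124 without 1 array. The acetylcholine genes Chat, Slc18a3 and Slc5a7 changed by 0.08, 0.05 and 0.21 and did not pass. Tac1, the substance P gene of the dorsal medial habenula and of the hypothalamus, was the one member below 0 (-0.23 ± 0.08, adjusted p = 0.244). The summed level of the list was 13.75 to 13.76 on the CGP arrays and 13.61 to 13.70 on the CON arrays.

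Most genes of the thalamus list were higher in CGP, by small steps. Of 14 measured genes, 11 passed the adjusted p, and 1 of these 11 was called. All 14 were above 0, and 13 had all CGP arrays above all CON arrays, where 12% of all genes did so in that direction. The median change was 0.29, where ASP had 0.21 and ASP+CGP 0.32 against the same CON arrays. Lhx9, a LIM homeobox factor of the developing thalamus and the called gene, had 8.87, 8.90 and 8.90 on the CGP arrays and 8.34, 8.28 and 8.31 on the CON arrays, a change of 0.58 ± 0.05 (limma adjusted p = 3.34e-05). Prkcd, the protein kinase C delta gene that marks thalamic relay neurons, had 11.08, 11.14 and 11.10 on the CGP arrays and 10.67, 10.72 and 10.67 on the CON arrays, a change of 0.42 ± 0.04. Both pools were tight and well apart. Ramp3, a partner of calcitonin-family receptors, had 10.33, 10.41 and 10.31 on the CGP arrays and 9.91, 9.91 and 10.02 on the CON arrays (0.40 ± 0.04).

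Transcription factors of the list passed the adjusted p as well. Rora, an orphan nuclear receptor, changed by 0.35 ± 0.04, Tcf7l2, a Wnt pathway factor, by 0.34 ± 0.04, Lef1, its relative, by 0.31 ± 0.04 and Gbx2, a homeobox factor, by 0.28 ± 0.05. Tcf7l2 had 11.45, 11.42 and 11.46 on the CGP arrays and 11.06, 11.07 and 11.17 on the CON arrays, with no overlap. Synpo2, an actin-binding protein, Ntng1, a netrin-G ligand of thalamic axons, Adarb1, an RNA editing enzyme, and Plekhg1 rose by 0.30, 0.28, 0.25 and 0.25. Cacna1g, a T-type calcium channel (0.21 ± 0.06, adjusted p = 0.173), Tnnt1, a troponin (0.22 ± 0.07, adjusted p = 0.199), and Zfhx3, a zinc finger homeobox factor (0.07 ± 0.04, adjusted p = 0.578), did not pass. Lhx9, Prkcd, Ramp3, Rora, Tcf7l2, Lef1 and Synpo2 passed the adjusted p in all 6 fits without 1 array, and the count of list members that passed was 9, 11 and 10 without CON array 1, 2 and 3 and 7, 9 and 8 without CGP array 1, 2 and 3. The mean signal over the list was 10.18, 10.21 and 10.19 on the CGP arrays and 9.88, 9.89 and 9.90 on the CON arrays, and its summed level was 14.29 to 14.31 and 13.98 to 14.02. Whether the dissected blocks differed in how much thalamus or habenula they held was not tested.

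**Figure D3:**
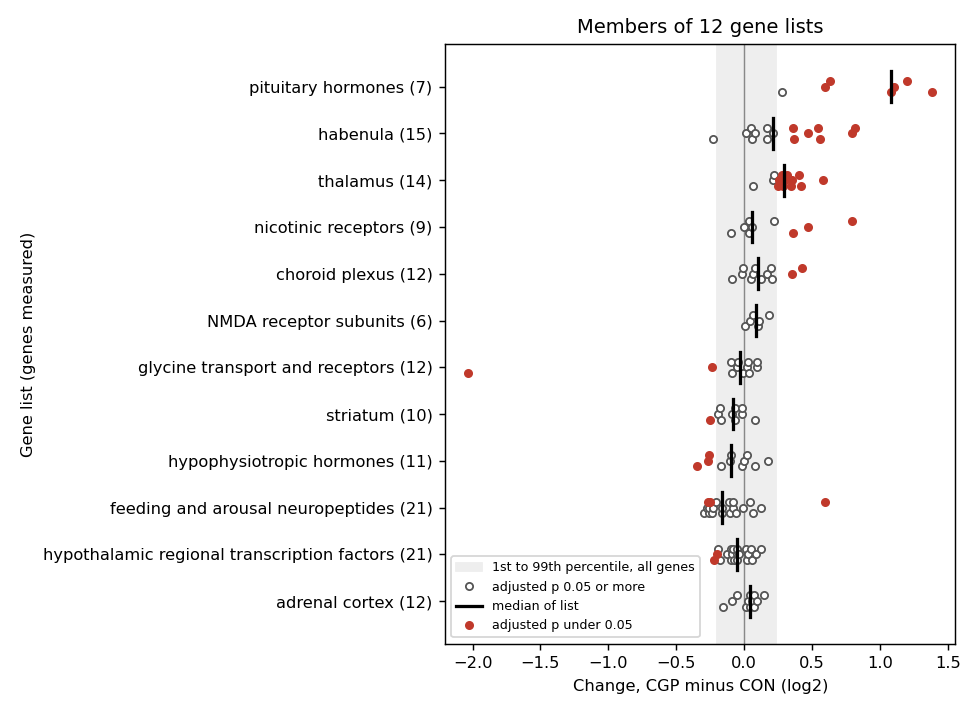
Change in CGP minus CON (log2, x axis) of each measured member of 12 gene lists (y axis, number of genes in brackets), filled where the adjusted p was under 0.05, with a black line at the median of a list and a grey band from the 1st to the 99th percentile of all genes (-0.20 to 0.24). The medians of the pituitary hormone and thalamus lists, 1.08 and 0.29, lie to the right of the band, and those of the hypothalamic peptide lists lie left of 0.

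Of genes outside the lists above that passed the adjusted p, the following were higher in CGP. Zic1 and Zic5, zinc finger factors of the dorsal and medial forebrain, had 11.11, 11.06 and 11.11 (Zic1) and 9.34, 9.41 and 9.30 (Zic5) on the CGP arrays, against 10.72, 10.73 and 10.69 and 8.87, 8.94 and 8.997 on the CON arrays. Arrays did not overlap, and the changes were 0.38 ± 0.04 and 0.42 ± 0.05. The related Zic2 and Zic4 changed by 0.29 ± 0.15 and 0.13 ± 0.05 (adjusted p = 0.489 and 0.266). Slc17a7, the vesicular glutamate transporter VGLUT1 of cortical, habenular and some thalamic neurons, rose by 0.43 ± 0.06 and was the only one to pass the adjusted p among 22 genes of other glutamate receptors and transporters. Ttr, the thyroxine carrier made by the choroid plexus, had 12.18, 12.20 and 12.18 on the CGP arrays and 11.71, 11.68 and 11.90 on the CON arrays (0.42 ± 0.07, adjusted p = 0.00649, called at 0.49 without the third CON array). Of 12 choroid plexus genes, Ttr and Otx2, a homeobox factor that many brain regions share, passed the adjusted p alone and the median was 0.10. Otx2 (0.35) passed in 2 of the 6 fits without 1 array and had an adjusted p of 0.0823 with the 6 compared arrays fitted alone and of 0.0605 without moderation of the spread. Folr1 and Kl, further choroid plexus genes, changed by 0.08 and 0.06 with adjusted p-values of 0.777 and 0.729.

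Called genes outside these lists were Scube1, Lrrc55 and Neurod4. Scube1, a secreted and membrane protein with CUB and EGF domains, had 8.92, 9.01 and 9.05 on the CGP arrays and 8.29, 8.40 and 8.40 on the CON arrays, a change of 0.63 ± 0.05 (limma adjusted p = 1.83e-05). Lrrc55, an auxiliary subunit of BK potassium channels, had 10.05, 10.02 and 10.10 on the CGP arrays and 9.53, 9.67 and 9.49 on the CON arrays (0.49 ± 0.06). Neurod4, a basic helix-loop-helix factor of neuronal differentiation, had 6.30, 6.39 and 6.22 on the CGP arrays and 5.84, 5.78 and 5.81 on the CON arrays (0.49 ± 0.07). Arrays of the pools did not overlap for any of these, but the CON values of Neurod4 lay under 6, the limit below which signals were taken as background. Its ASP+CGP values lay under 6 as well. Neurod4 thus passed the signal filter only through the CGP and ASP arrays, where it was high, and its calls are no independent support for a difference. Gpr151, Chrnb4, Scube1, Lhx9 and Slc6a5 were singled out by the study on these same samples, so that their calls here are not independent evidence of a direction. In the list of 11 neurogenesis genes 0 passed the adjusted p and the median was 0.01, and in that of 14 immediate early genes, which report recent activity of neurons, 0 passed and the median was 0.06.

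Of 11 hypophysiotropic hormone genes of the hypothalamus, 3 passed the adjusted p, all lower in CGP by small steps, none was called and the median was -0.10. ASP and ASP+CGP had medians of -0.10 and -0.11 against the same CON arrays. Avp, the vasopressin gene, had 10.91, 10.92 and 10.89 on the CGP arrays and 11.26, 11.25 and 11.26 on the CON arrays. Trh, thyrotropin-releasing hormone, had 10.61, 10.63 and 10.62 on the CGP arrays and 10.89, 10.87 and 10.90 on the CON arrays. In both the arrays of a pool agreed within 0.03 and lay well apart from the other pool, with changes of -0.35 ± 0.04 and -0.27 ± 0.04 (limma adjusted p = 0.00124 and 0.00435), and both passed in all 6 fits without 1 array. Oxt, oxytocin, had 11.86, 11.87 and 11.91 on the CGP arrays and 12.04, 12.12 and 12.25 on the CON arrays, a change of -0.26 ± 0.05 that passed (0.0363) but reached an adjusted p of 0.162 when an array was left out. With the 6 compared arrays fitted alone, 2 of the 11 passed. Crh, Gnrh1, Ghrh and Sst, which control corticotropin, the gonadotropins and growth hormone, changed by -0.01, 0.00, -0.10 and -0.17 with adjusted p-values of 0.175 to 0.995.

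Of 21 feeding and arousal neuropeptides, 17 were below 0 and 11 had all CGP arrays below all CON arrays, where 7.39% of all genes did so. The median was -0.16, where ASP had -0.13 and ASP+CGP -0.07 against the same CON arrays. Only Penk and Adcyap1 passed the adjusted p in that direction, and with the 6 compared arrays fitted alone 0 did, while Pomc was called higher. Penk, the enkephalin precursor, had 11.98, 12.00 and 12.00 on the CGP arrays and 12.19, 12.26 and 12.29 on the CON arrays (-0.26 ± 0.04, adjusted p up to 0.0756 without 1 array). Adcyap1, which encodes PACAP, changed by -0.27 ± 0.05 and did not pass in any of the 6 fits without 1 array. Npy, the hunger peptide of arcuate neurons, had 11.15, 11.19 and 11.16 on the CGP arrays and 11.36, 11.39 and 11.65 on the CON arrays (-0.30 ± 0.09, adjusted p = 0.183). Pmch, melanin-concentrating hormone, had 11.74, 11.84 and 11.76 on the CGP arrays and 11.99, 11.96 and 12.22 on the CON arrays (-0.27 ± 0.07, adjusted p = 0.14). The third CON array was the highest for Npy, Pmch and Oxt, and without it the median of the list was -0.07.

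Hdc, the enzyme that makes histamine in the tuberomammillary nucleus, changed by -0.30 ± 0.05 and Crym, a thyroid hormone binding protein, by -0.42 ± 0.06. Crym had 8.32, 8.39 and 8.50 on the CGP arrays and 8.76, 8.90 and 8.80 on the CON arrays and passed in all 6 fits without 1 array, whereas Hdc passed in 4. Of 21 regional transcription factors of the hypothalamus, Bsx and Otp passed the adjusted p, at -0.22 ± 0.04 and -0.20 ± 0.04, but in only 1 of those fits each. Nkx2-1, which specifies the ventral hypothalamus, changed by -0.08 ± 0.05 (adjusted p = 0.579), and the median of the list was -0.05, where ASP had -0.05 and ASP+CGP -0.10. Of 10 striatum genes Penk alone passed, with a median of -0.08.

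**Figure D4:**
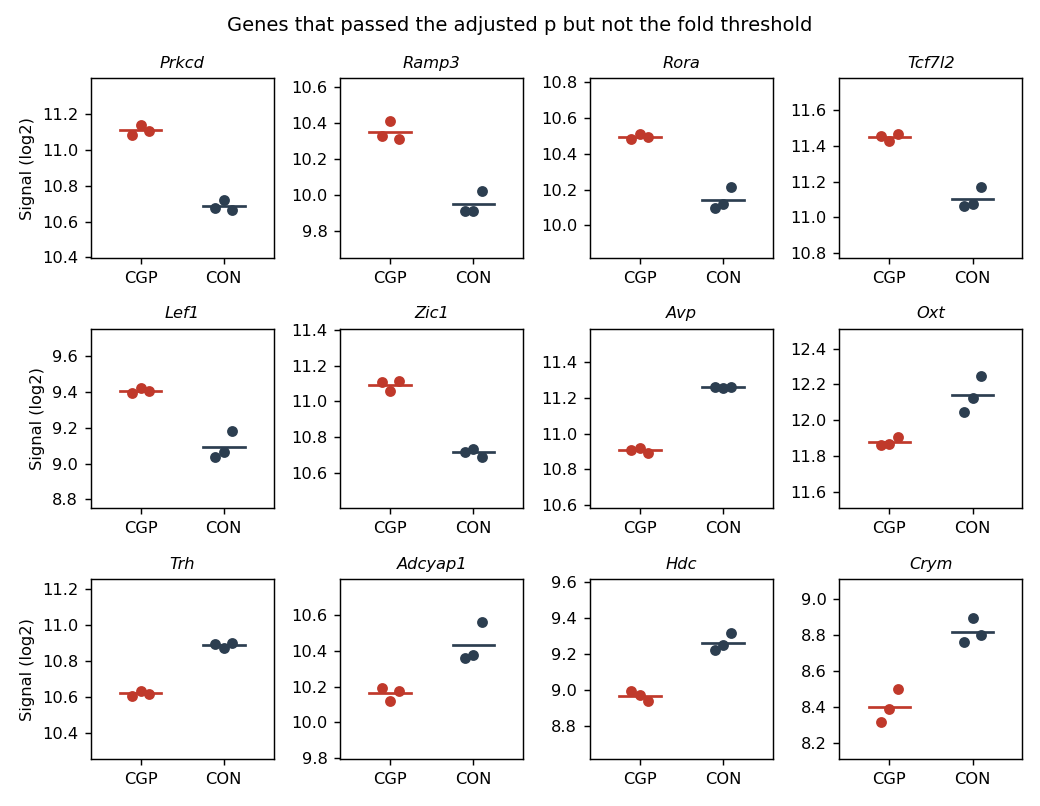
Signal (log2 RMA value, y axis, each panel spanning 1 log2 unit) on the 3 CGP arrays (left) and the 3 CON arrays (right) for 12 genes that passed the adjusted p but not the 1.4-fold threshold, with lines at the means. Prkcd, Ramp3, Rora, Tcf7l2, Lef1 and Zic1 were higher and Avp, Oxt, Trh, Adcyap1, Hdc and Crym lower in CGP. Arrays did not overlap, which held for all 108 genes that passed the adjusted p.

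The receptor that the drug blocks showed no called change in its own genes. Of 6 NMDA receptor subunit genes measured, 0 passed the adjusted p in limma and 1 had an unadjusted p under 0.05, where 11.6% of all genes did, and all 6 changes were above 0. Grin2a had 9.31, 9.35 and 9.33 on the CGP arrays and 9.24, 9.25 and 9.18 on the CON arrays, a change of 0.11 ± 0.04 (95% interval 0.03 to 0.19, adjusted p = 0.277). Grin2b had 10.46, 10.42 and 10.41 on the CGP arrays and 10.36, 10.37 and 10.02 on the CON arrays. Its change of 0.18 ± 0.08 (95% interval -0.000987 to 0.36) drew on the third CON array, which was low. Grin2c, Grin2d, Grin3a and Grin3b had overlapping arrays and intervals that ended at 0.17, 0.22, 0.24 and 0.09, all under the 1.4-fold limit. Grin1 was not analysed here. Of 17 scaffold and signalling genes of the receptor 0 passed, with a median of 0.06, and of 18 GABA signalling genes Gabra4 and Gabrd, subunits of extrasynaptic receptors found in the thalamus, passed the adjusted p alone at 0.24 and 0.21. They passed in 2 and 1 of the 6 fits without 1 array (adjusted p up to 0.0903 and 0.208), and 0 of the 18 passed with the 6 compared arrays fitted alone.

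Markers of other organs and of glia gave no calls. None of 12 adrenal cortex, 11 exocrine pancreas and 11 adipose genes passed the adjusted p, and the medians were 0.04, 0.09 and 0.06. Lists of astrocytes, oligodendrocytes, microglia and endothelium had 0 members that passed and medians between -0.04 and 0.08.

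The other pools show where the CGP levels lie in the series. Comparisons of ASP and of ASP+CGP with CON share the CON arrays with the comparison above, so CGP was also set directly against each. Against ASP, 162 genes were called (0.943%), all of them lower in CGP. Adrenal cortex, adipose and exocrine pancreas genes were high in ASP, with median changes from CON of 2.94, 2.58 and 1.51. In CGP those medians were 0.04, 0.06 and 0.09, so CGP lay near CON in these lists. Of the 19 genes above, Slc6a5 alone was called. At the adjusted p alone, Pomc, Epcam and Lhb were lower in CGP than in ASP (limma adjusted p up to 0.0259). Lhx9, Scube1, Nwd2, Chrnb4 and Gpr151 were higher by that measure (up to 0.012). The CGP arrays on which the 19 were chosen are part of this comparison as well. Slc6a5 averaged 7.41 ± 0.07 in CGP, 8.01 ± 0.12 in ASP, 7.53 ± 0.11 in ASP+CGP and 9.44 ± 0.15 in CON (SD, n = 3 arrays each), and the difference of CGP from ASP was -0.60 (adjusted p = 0.000416), whereas that from ASP+CGP was -0.12 (0.531). Bpifa1 averaged 6.99 ± 0.07 in CGP, 6.83 ± 0.08 in ASP, 6.89 ± 0.07 in ASP+CGP and 7.87 ± 0.16 in CON, and Lamp5 9.12 ± 0.08, 9.16 ± 0.04, 9.17 ± 0.07 and 9.70 ± 0.10 in the same order. For these 3 genes the CON pool was the one that stood apart, above the 3 treated pools. In a test of whether the CGP effect differed between mice without and with aspartame, 257 genes were called (1.5%), among them 16 of the 19. These 19 were chosen on CGP minus CON, which is part of that difference, so their share was set in part by the choice and is not to be read against that of all genes.

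The hormone genes had another order. Against ASP+CGP, 28 genes were called (0.163%), 23 higher (0.134%) and 5 lower in CGP (0.0291%), and these included 9 of the 19 genes, among them all 6 called hormone genes with Ghrhr, Epcam and Neurod4. This comparison shares the CGP arrays on which the 19 were chosen, and Neurod4 passed the signal filter only through the CGP and ASP arrays. Prl averaged 12.22 ± 0.05 in CGP, 12.51 ± 0.02 in ASP, 7.61 ± 0.40 in ASP+CGP and 10.83 ± 0.18 in CON, and Gh 13.97 ± 0.03 in CGP, 14.08 ± 0.01 in ASP, 11.02 ± 0.04 in ASP+CGP and 13.33 ± 0.03 in CON. The pool that received both treatments was thus the lowest. Between CGP and ASP the difference was -0.29 for Prl (adjusted p = 0.348) and -0.12 for Gh (0.153), while Pomc and Lhb were lower in CGP than in ASP by the adjusted p, at -0.32 and -0.47. Habenula and thalamus genes followed a different pattern. Gpr151 averaged 8.33 ± 0.02 in CGP, 7.94 ± 0.06 in ASP, 8.02 ± 0.07 in ASP+CGP and 7.52 ± 0.20 in CON, and Chrnb4 9.14 ± 0.05 in CGP, 8.87 ± 0.01 in ASP, 8.80 ± 0.01 in ASP+CGP and 8.34 ± 0.08 in CON. For Prkcd the averages were 11.11 ± 0.03 in CGP, 11.02 ± 0.05 in ASP, 11.15 ± 0.05 in ASP+CGP and 10.69 ± 0.03 in CON. Avp was lowest in ASP+CGP, at 10.71 ± 0.01, with 10.91 ± 0.01 in CGP, 10.76 ± 0.08 in ASP and 11.26 ± 0.0027 in CON.

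**Figure D5:**
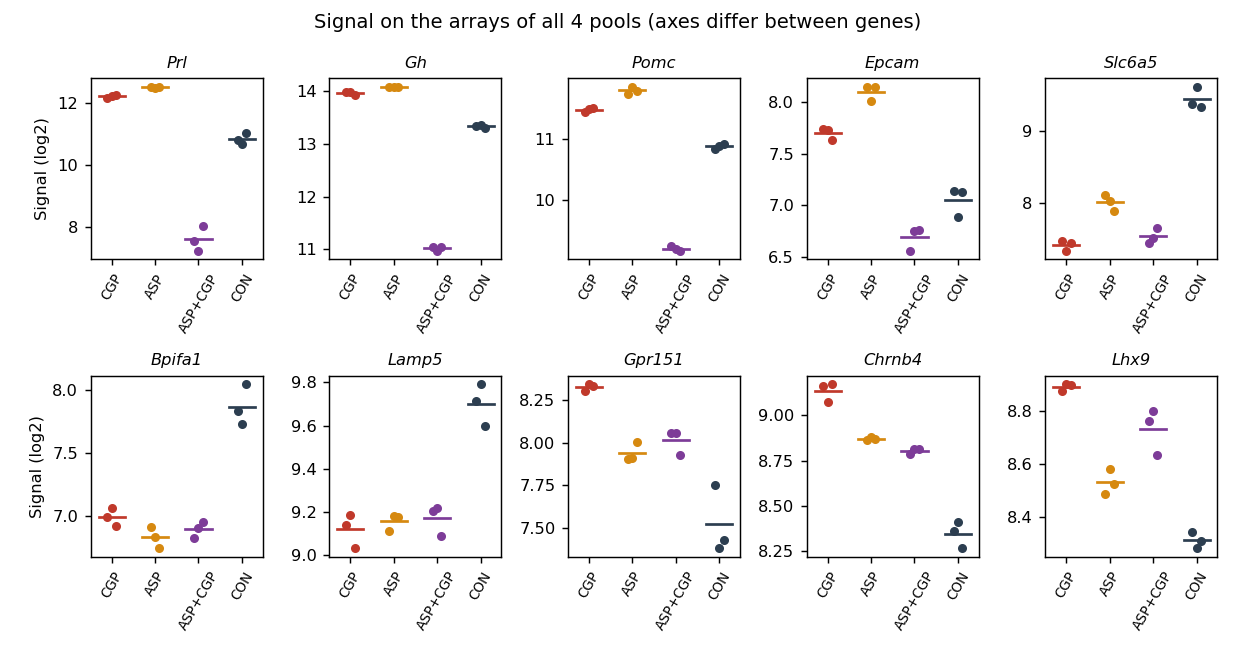
Signal (log2 RMA value, y axis, which differs between panels) of 10 called genes on the 3 arrays of each pool, in the order CGP, ASP, ASP+CGP and CON, with lines at the means. Hormone genes and Epcam were lowest in ASP+CGP, whereas Slc6a5, Bpifa1 and Lamp5 were highest and Gpr151, Chrnb4 and Lhx9 lowest in CON.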

How the data were processed

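Expression values of 12 Affymetrix Mouse Gene 1.0 ST arrays were used, of which 6 were compared here. The authors deposited log2 signals, which, per the submitters' processing notes and the study's methods, were made in Partek by RMA (background correction, quantile normalization over arrays and median polish of probes). Quantile normalization removes changes common to most genes, and background in the signal understates the change of low genes. The build behind the array annotation was not given in the sources used here. Precision is limited by having 3 arrays of 1 pool per group.

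Of 29149 probe sets, 19019 had 1 gene symbol in the platform annotation, and 1197 with several and 8933 with none were kept out of the gene comparison. Those of them that passed the signal filter below (1168 and 8542) were tested in a second fit. That fit also held the kept probe sets with 1 symbol, and p-values were adjusted over all of them. Probe sets with 1 symbol were used where 3 or more arrays reached a signal of 6 (18810), and the one with the highest mean stood for a gene (17186 genes). Each called gene had 1 probe set. Group means of all 12 arrays were fitted with limma 3.58.1 in R 4.3.3 (8 residual and 5.43 prior degrees of freedom, p-values adjusted over all genes per comparison). An exact permutation test of 3 arrays against 3 cannot go below a p of 0.1 and was not made. Values after ± are standard errors for changes and SDs for averages, and intervals are 95% intervals of the fit. Sums of a list are sums of linear signals, given as log2.

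All called genes are named. Further genes were drawn from the 15 largest rises and falls at the adjusted p whose arrays did not overlap, up to 4 changed members of each list, all members of the main lists and the most abundant member of the rest. Not every gene that met these rules is described. Left out were the falls of Prg4 (-0.37), Fndc3c1 (-0.36), Ppp1r17 (-0.35), Gpr101 (-0.31), AI506816 (-0.29) and Marcksl1 (-0.28), none of them called. Members of the main lists such as Kctd8 and Kctd12 were left out too. Genes outside these rules were chosen after their values were seen: Adcy1, Bpifb1, Chrna6, Cpne4, Cpne9, Crh, Dlx5, Folr1, Ghrh, Gm10785, Gnrh1, Kl, Necab1, Necab2, Necab3, Nfam1, Nkx2-1, Npy, Phox2a, Pmch, Prkcq, Scube2, Slc6a4, Snord87, Zic2, Zic4 and Zic5. Members, lists (39, with 445 of 492 genes measured) and tests were chosen with earlier results of these data known. Replicate numbers are shared between groups, but deviations from the pool means had correlations of only 0.072, -0.039 and -0.0049 between CGP and CON arrays of like number, so the numbers were not taken to pair samples. Steps were tested on simulated data. Alternatives were other filters, probe set rules, normalization, tests and thresholds, the block, the 6 arrays alone and leaving out each array. A fit that dropped array 3 of both CON and ASP+CGP was chosen after seeing the data. Promoter windows came from RefSeq on GRCm38.p6 and were matched by symbol, and figures were drawn with matplotlib 3.10.9.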

Additional observations from a re-analysis of the deposited data

Results flagged for a closer look

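Several genes were marked because the effect of CGP differed between mice without aspartame (CGP minus CON) and mice with aspartame (ASP+CGP minus ASP), by a test of that difference in the limma fit at the same thresholds. Over all genes 257 of 17186 passed (1.5%), and of the 19 genes called in CGP vs CON 16 did, with all 3 arrays of each pool in the fit. The 19 were chosen on CGP minus CON, which is part of the difference tested, so a high share among them was set in part by the choice and is not to be read against that of all genes. Among the pituitary genes the difference of the effects was 6.28 for Prl, 4.48 for Cga, 3.69 for Gh, 3.54 for Lhb, 3.17 for Pomc, 2.76 for Fshb and 1.56 for Ghrhr (log2 scale), and it was 2.06 for Epcam and 0.92 for Neurod4. These genes were higher in CGP than in CON and lower in ASP+CGP than in ASP, but Neurod4 passed the signal filter only through the CGP and ASP arrays. Chrnb4 had a difference of 0.86, Gpr151 of 0.74, Scube1 of 0.55 and Lrrc55 of 0.52. In the genes that were lower in CGP it was -1.55 for Slc6a5, -0.94 for Bpifa1 and -0.59 for Lamp5. Each difference rests on 4 pools, so it cannot be told apart from a difference between single pools.

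Probe sets that carry no gene symbol in the annotation used were outside the comparison and also held signals above CON. Of 8542 such probe sets, 5 were called higher and 4 lower in CGP, where 16 and 3 of the 17186 genes were. Of 1168 with several symbols 0 were called in limma. Among those called higher, 10513420, 10513437 and 10513455 lay under 6 on every compared array, at 5.65 to 5.91 in CGP and 5.03 to 5.43 in CON. They passed the signal filter only through ASP or ASP+CGP arrays, and their values lie in the range taken as background. The largest change was that of probe set 10436476, with 8.25, 8.24 and 8.29 on the CGP arrays and 7.01, 6.94 and 7.10 on the CON arrays (1.25, adjusted p = 4.31e-05).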

How the results depend on the processing

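The 19 calls kept their direction under every setting tried, and the count of called genes stayed between 18 and 23 with the 1.4-fold threshold, at 13 with a 1.5-fold threshold, and came to 108 (84 higher, 24 lower) without a fold threshold. Lower calls numbered 3 to 5 with 1 array left out, with 5 without the second CON array. With the replicate number as a block, 20 genes were called (16 higher and 4 lower), and under this pairing 19 of the 19 calls remained and no other count of calls moved by over 1.5 times. At the adjusted p alone, the count of higher genes was 42 to 133 and that of lower genes 7 to 23 with 1 array left out, 48 and 10 when the 6 arrays were fitted alone, and 257 and 48 with array 3 of both CON and ASP+CGP dropped. Grin2d ranged from -0.011 to 0.0749 with 1 array left out, with the lowest value without the third CON array and also without both of the arrays just named. Grin3b was at -0.0301 after a further quantile normalization, at -0.00191 without the first CON array, and ranged from -0.0106 (without the first CGP array) to 0.0225 (without the second). With 1 array left out, other small changes also crossed 0, namely Crh (-0.0818 to 0.0596), Folr1 (-0.00382 to 0.159), Ghrh (-0.163 to 0.00703) and Gnrh1 (-0.0245 to 0.0402), and for Ghrh and Gnrh1 the upper values were those without CON array 3, with or without array 3 of ASP+CGP. None of these genes passed the adjusted p in any of these fits. Calls in CGP vs ASP ranged from 154 to 167 and in CGP vs ASP+CGP from 20 to 31. The causes of these shifts were not tested. A low signal limits what can be seen for Neurod4, Gnrhr and Tph2, since background then forms much of the value, and 3 arrays of 1 pool per group say nothing of the spread between mice.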

Other observations

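The genes in this paragraph were chosen after their values in CGP and CON were seen, so that their likeness in family is no result. All 3 Necab genes, which encode neuronal calcium-binding proteins, passed the adjusted p in limma. Necab3 had 9.18, 9.21 and 9.17 on the CGP arrays and 8.81, 8.87 and 8.90 on the CON arrays (0.33 ± 0.05), Necab2 changed by 0.27 ± 0.04 and Necab1 by 0.19 ± 0.04, but Necab3 alone passed in all 6 fits without 1 array. Prkcq, a protein kinase C related to Prkcd, had 8.84, 8.94 and 8.89 on the CGP arrays and 8.51, 8.47 and 8.54 on the CON arrays (0.38 ± 0.05). Adcy1, a calmodulin-activated adenylyl cyclase of neurons, rose by 0.33 ± 0.05. Among copines, calcium-dependent membrane proteins, Cpne4 and Cpne9 changed by 0.28 and 0.25, and Scube2, a relative of Scube1, by 0.26. Of the 6 fits without 1 array, Necab2 and Cpne4 passed in 3 each and Necab1, Cpne9 and Scube2 in 1 each, with adjusted p-values of up to 0.167. Nfam1, an immunoreceptor adaptor of blood cells, had 7.54, 7.60 and 7.41 on the CGP arrays and 7.08, 7.01 and 7.10 on the CON arrays (0.45 ± 0.05), while 0 of 12 microglia genes passed.

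Dlx6, a homeobox factor of forebrain GABA neurons, was lower in CGP, with 8.08, 8.07 and 8.14 on the CGP arrays and 8.35, 8.38 and 8.49 on the CON arrays (-0.31 ± 0.05, adjusted p = 0.00807). Its neighbour gene Dlx5 had 9.14, 9.13 and 9.26 on the CGP arrays and 9.27, 9.31 and 9.37 on the CON arrays, and its change of -0.14 ± 0.05 did not pass (adjusted p = 0.255). Htr5b, a serotonin receptor that is dense in the habenula of rodents, had 7.90, 7.97 and 8.02 on the CGP arrays and 7.46, 7.57 and 7.68 on the CON arrays (0.40 ± 0.07, adjusted p = 0.0139), and passed in 3 of the 6 fits without 1 array.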
